A study of Mus musculus with 24 samples.

Results

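The genes described here are 8 mouse genes of muscle atrophy and the fasting response, Trim63, Fbxo32, Foxo1, Foxo3, Pdk4, Cblb, Eif4ebp1 and Irs2, out of 51138 genes counted by bulk RNA sequencing in constructs collected from under the skin at week 2. The set was chosen by known role and by its levels in these same samples, so the levels and fold changes of the 8 genes between groups are given as a description. Counts of these genes past a threshold of the fit across all genes describe where they stand in that fit and, since the genes were selected on these samples, are no independent test of them. Ckm, the creatine kinase of striated muscle, was followed beside them as a reference for the muscle content of each sample. All 8 genes and Ckm had enough counts to enter the fit, which held 30564 genes.

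Skeletal muscle loses protein when insulin and growth factor signalling falls, when it is unloaded or denervated, and when glucocorticoids rise. FoxO transcription factors, which insulin signalling through Akt keeps out of the nucleus, then raise the muscle ubiquitin ligases MuRF1 (Trim63) and atrogin-1 (Fbxo32), which mark proteins for breakdown by the proteasome. During fasting the same tissue turns from glucose to fatty acids, a switch in which the kinase Pdk4 closes the entry of pyruvate into the mitochondrial oxidation of glucose.

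There were 24 samples, 1 per mouse, in 6 groups of 4. All hosts were male and female Foxp3-DTR/eGFP mice of 8 to 9 weeks, in which the Foxp3 gene drives the diphtheria toxin receptor and a green fluorescent protein, so that regulatory T cells (Treg) can be removed with the toxin. Each mouse carried 2 constructs of biphasic calcium phosphate granules (BCP, a ceramic used in bone repair) on the back. The 4 groups that received no toxin are called untreated here. They were BCP without cells, BCP+MSC with bone marrow stromal cells (MSC) of C57BL/6J mice, BCP+MSC+RvE1 with MSC that had been primed in 10 nM resolvin E1 (RvE1), a lipid mediator, and BCP+MSC+Treg with MSC cocultured with activated Treg. Both remaining groups carried MSC and received diphtheria toxin at 50 µg/kg into the abdomen. One was (dep)BCP+MSC. The other, (dep)BCP+MSC+RvE1inj, was also given 1 µM RvE1 at the construct each day. No control group in which mice without the receptor received toxin was used here, so removal of Treg and the toxin treatment itself cannot be told apart.

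Total counts per sample ran from 8482701 to 144417743, and 3 counts corresponded to 0.0208 to 0.354 CPM of a library's own total. CPM elsewhere are counts scaled to a common library size after TMM normalization. The labels gave a subcutaneous implant as the tissue, and skeletal muscle RNA was present in each library, with none of 32 muscle markers at 0 in any group and a summed level of 485 to 52639 CPM in untreated and 9533 to 50048 CPM in toxin-treated samples. Ckm itself spanned a 136-fold range among the untreated samples. It was lowest in BCP+MSC number 2, at 30.4 CPM, and highest in BCP+MSC+RvE1 number 1, at 4141 CPM. Foxp3, the gene of the cells targeted by the toxin, had a median of 0.895 CPM in untreated and 0.823 CPM in toxin-treated samples, with overlapping ranges. It was 0.934 CPM in (dep)BCP+MSC against 0.956 CPM in BCP+MSC, so that no loss of Foxp3 was seen in the constructs at this level of counts. The study itself checked the depletion by flow cytometry and reported fewer Treg in lymph nodes and spleen. Foxp3 RNA this low in a whole construct does not measure that depletion, and (dep) is used here as the name of the groups that received toxin. Summed T cell markers had medians of 43.6 and 133 CPM, summed fibroblast markers of 28747 and 9640 CPM and summed keratinocyte markers of 30.7 and 75.9 CPM in untreated and toxin-treated samples. In a bulk sample, fewer cells of a type and less RNA per cell cannot be told apart.

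Trim63 encodes a ubiquitin ligase of the sarcomere and lies on the plus strand at chr4:134315120-134329629 (GRCm38). Its level was 10.1, 31.7, 21.4 and 6.23 CPM for BCP, 31.6, 0.641, 29.4 and 64.5 CPM in BCP+MSC, 68.2, 64.6, 75.0 and 41.7 CPM in BCP+MSC+RvE1, and 40.9, 61.0, 60.6 and 8.47 CPM in BCP+MSC+Treg. In toxin-treated mice it was 2354, 3527, 405 and 459 CPM in the (dep)BCP+MSC libraries numbered 1, 2, 4 and 5, and 73.3, 667, 993 and 417 CPM in (dep)BCP+MSC+RvE1inj. Thus 7 of 8 toxin-treated samples lay above all 16 untreated samples, and the eighth, (dep)BCP+MSC+RvE1inj number 1, lay just under the highest untreated value of 75.0 CPM. The mean was 38.5 ± 24.8 CPM (SD, n = 16) without and 1112 ± 1200 CPM (SD, n = 8) with toxin. The edgeR estimate of the log2 fold change was 4.77 ± 0.58 (SE), or 27.3-fold. The low value in BCP+MSC number 2 rested on 42 counts and came from the library with the lowest Ckm.

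The 250 bases before the RefSeq start of Trim63 are shown beside those of Foxo1 and Pdk4, since these genes were higher together in the toxin-treated samples and since the Trim63 stretch alone held a FoxO element. Sequences are from RefSeq on GRCm38.p6, read 5′ to 3′ on the strand of the gene, and come from chr4:134314870-134315119 (plus strand), chr3:52268087-52268336 (plus strand) and chr6:5496279-5496528 (minus strand). Promoters of 6 of the 8 genes were matched, without Fbxo32 and Eif4ebp1. Capitals mark the FoxO element GTAAACA, which lies on the opposite strand, and directly before it a near match to the glucocorticoid receptor palindrome.
Trim63: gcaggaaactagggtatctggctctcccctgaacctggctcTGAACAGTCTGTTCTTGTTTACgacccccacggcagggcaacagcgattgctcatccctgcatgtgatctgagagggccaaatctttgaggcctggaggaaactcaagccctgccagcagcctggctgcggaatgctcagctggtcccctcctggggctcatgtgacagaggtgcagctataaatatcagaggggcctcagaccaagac
Foxo1: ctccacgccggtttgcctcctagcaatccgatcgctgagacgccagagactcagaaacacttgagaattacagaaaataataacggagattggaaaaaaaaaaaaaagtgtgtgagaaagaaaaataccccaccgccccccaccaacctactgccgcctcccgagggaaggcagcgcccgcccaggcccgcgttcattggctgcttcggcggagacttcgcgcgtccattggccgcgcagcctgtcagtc
Pdk4: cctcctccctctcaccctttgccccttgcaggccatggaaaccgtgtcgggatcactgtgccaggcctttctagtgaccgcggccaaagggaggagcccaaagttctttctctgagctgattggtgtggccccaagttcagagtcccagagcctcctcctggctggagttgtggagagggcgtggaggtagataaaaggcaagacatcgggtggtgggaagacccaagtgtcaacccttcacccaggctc
GTAAACA was searched on both strands and was found in 1 of the 6 promoters, starting at position -194 from the gene start, and in 1040 of all 32851 promoters of 250 bases (3.17%). The exact palindrome, AGAACA and TGTTCT with 3 bases of any kind between them, was in 0 of the 6 and in 3 of 32851 promoters (0.00913%). With up to 1 mismatch in its 12 fixed bases, a search added after the Trim63 sequence had been seen, it was in 46 promoters (0.140%), Trim63 among them. The element and the near palindrome do not overlap, and Trim63 was the 1 promoter of 32851 that held both. As the search with 1 mismatch was set on this sequence, Trim63 was sure to match, and nothing is read from that count. A match describes the letters and is not a measured binding site.

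Fbxo32, the ubiquitin ligase atrogin-1, lies on the minus strand at chr15:58175879-58214892. It was measured at 65.7, 80.2, 90.0 and 104 CPM for BCP, 76.2, 68.8, 59.3 and 127 CPM in BCP+MSC, 80.1, 45.9, 152 and 71.8 CPM in BCP+MSC+RvE1, and 42.3, 75.1, 89.5 and 51.6 CPM in BCP+MSC+Treg. The (dep)BCP+MSC samples held 1231, 780.4, 459 and 431 CPM and the (dep)BCP+MSC+RvE1inj samples 110.4, 414, 484 and 242 CPM. As for Trim63, (dep)BCP+MSC+RvE1inj number 1 was the lowest toxin-treated sample and the only one within the untreated range, and (dep)BCP+MSC held the highest values. Means were 79.9 ± 28.7 CPM (SD, n = 16) and 519 ± 347 CPM (SD, n = 8), with a log2 fold change of 2.58 ± 0.24 (SE). Unlike Trim63, Fbxo32 was not low in the sample with the least Ckm.

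Cblb, a ubiquitin ligase that limits signalling through the insulin receptor substrates in unloaded muscle and activation in T cells, lies at chr16:52031549-52208047 on the plus strand. Its lowest, median and highest levels were 36.6, 77.1 and 106 CPM in the untreated samples. It was 128, 92.5, 125 and 88.8 CPM in (dep)BCP+MSC and 100.3, 104, 70.4 and 95.3 CPM in (dep)BCP+MSC+RvE1inj. Only (dep)BCP+MSC numbers 1 and 4 exceeded the untreated range, and the log2 fold change of 0.43 ± 0.16 (SE) was small beside those of both muscle ligases.

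Foxo1 encodes a FoxO factor that acts on both atrophy and fuel genes and lies on the plus strand at chr3:52268336-52353221. Its level was 36.7, 28.7, 26.3 and 24.5 CPM for BCP, 20.0, 30.7, 23.5 and 38.5 CPM in BCP+MSC, 32.9, 29.5, 28.5 and 30.8 CPM in BCP+MSC+RvE1, and 31.9, 23.4, 22.9 and 23.0 CPM in BCP+MSC+Treg. In toxin-treated mice it was 137, 117, 52.9 and 41.2 CPM in (dep)BCP+MSC and 38.6, 54.0, 54.3 and 45.3 CPM in (dep)BCP+MSC+RvE1inj. All 8 toxin-treated samples were above all 16 untreated ones, although the nearest values, 38.6 and 38.5 CPM, were almost the same. Among the 8 genes Foxo1 alone showed no overlap, as did 0.386% of all genes tested. The log2 fold change was 1.20 ± 0.17 (SE), or 2.29-fold, and (dep)BCP+MSC numbers 1 and 2 stood well above all other samples.

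Foxo3, a FoxO factor that drives autophagy and atrophy genes mainly through its phosphorylation and place in the cell, lies on the minus strand at chr10:42181841-42276755. It ranged from 60.0 to 95.6 CPM with a median of 79.6 CPM in untreated samples. It was 149.7, 105, 79.7 and 62.7 CPM in (dep)BCP+MSC and 65.6, 81.2, 78.5 and 79.4 CPM in (dep)BCP+MSC+RvE1inj. Apart from (dep)BCP+MSC numbers 1 and 2, the toxin-treated samples were within the untreated range, and the log2 fold change was 0.16 ± 0.13 (SE).

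Pdk4 lies on the minus strand at chr6:5483351-5496309. It was measured at 18.8, 43.1, 32.5 and 9.25 CPM for BCP, 55.8, 5.68, 52.1 and 123 CPM in BCP+MSC, 149, 93.0, 253 and 38.5 CPM in BCP+MSC+RvE1, and 150.1, 199, 77.0 and 31.6 CPM in BCP+MSC+Treg. The (dep)BCP+MSC samples held 237, 1468, 162 and 253 CPM and the (dep)BCP+MSC+RvE1inj samples 210.4, 290.2, 480.3 and 209.9 CPM. Toxin-treated samples were all high, but 5 of the 8 did not exceed the highest untreated sample, BCP+MSC+RvE1 number 3. Pdk4 also varied widely without toxin, with a mean of 25.9 ± 14.9 CPM for BCP against 133 ± 91.7 CPM for BCP+MSC+RvE1 (SD, n = 4 each). Its log2 fold change with toxin was 2.51 ± 0.48 (SE), or 5.70-fold, and was 1.87 without (dep)BCP+MSC number 2, the lowest value with any 1 sample left out.

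Eif4ebp1 encodes 4E-BP1, which holds back the start of translation when mTOR is inactive, and lies on the plus strand at chr8:27260329-27276674. Its lowest, median and highest levels were 43.6, 74.3 and 207 CPM in untreated samples. It was 208, 329, 151 and 236 CPM in (dep)BCP+MSC and 131, 210.1, 381 and 169 CPM in (dep)BCP+MSC+RvE1inj. In toxin-treated mice 5 of 8 samples were above the untreated range, 1 of them by a margin of 208 against 207 CPM, and the log2 fold change was 1.21 ± 0.25 (SE). Irs2, an adaptor that carries the signal of the insulin and IGF1 receptors, lies on the minus strand at chr8:10984681-11008458. It ranged from 14.5 to 48.1 CPM with a median of 20.7 CPM in untreated samples. The (dep)BCP+MSC samples held 99.6, 62.4, 33.6 and 23.0 CPM and the (dep)BCP+MSC+RvE1inj samples 29.5, 29.8, 23.6 and 31.4 CPM. Only (dep)BCP+MSC numbers 1 and 2 stood above the untreated range, and the log2 fold change was 0.76 ± 0.21 (SE).

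**Figure D1:**
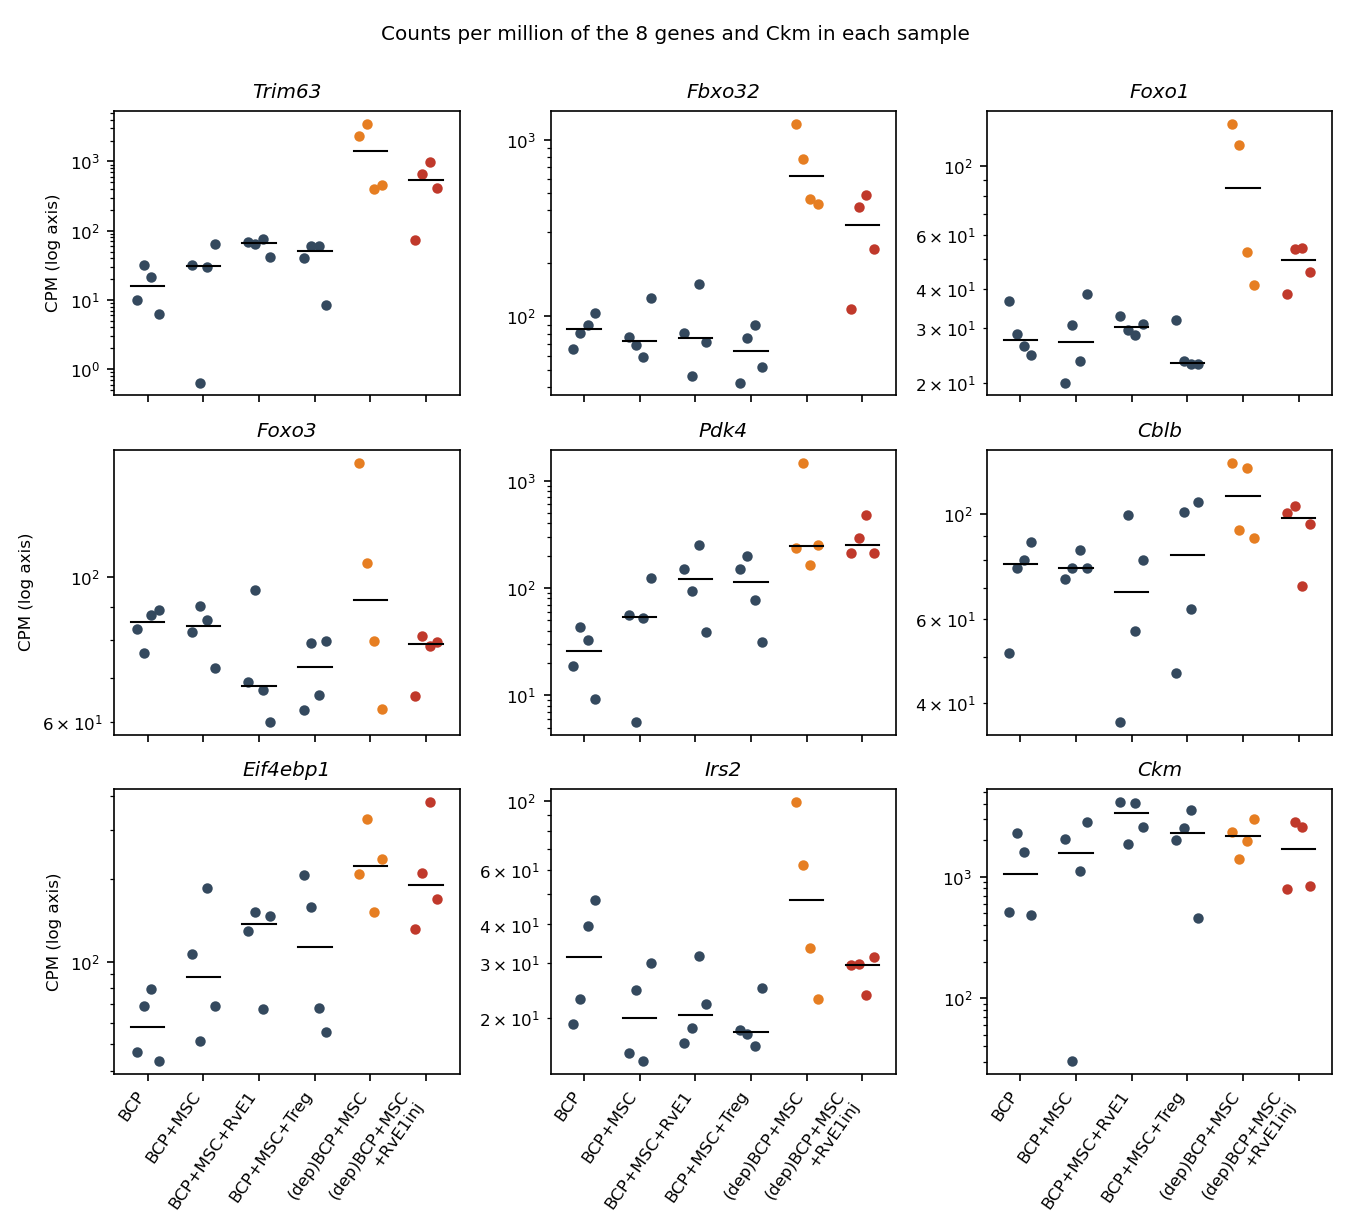
CPM on log axes for the 8 genes and Ckm in each of 24 samples (points) by group, with the group median as a bar. Both toxin-treated groups (orange, red) lie above the untreated groups for Trim63, Fbxo32 and Foxo1, except (dep)BCP+MSC+RvE1inj number 1 for Trim63 and Fbxo32, while Ckm overlaps fully.

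Fbxo32, Foxo1 and Irs2 have exons that overlap an annotated transcript on the opposite strand (Gm15943, Gm20402 and 9530052E02Rik), as does Ckm (A930016O22Rik), and since no option for strand was set in counting, reads of these pairs may not have been kept apart. The exons of the other 5 genes overlapped none.

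Levels of different genes were compared per exon length, in TPM, which divides counts by exon length and scales each sample to the same total. Without toxin, Eif4ebp1 had the highest median level, 93.2 TPM, followed by Pdk4 (37.7 TPM), Trim63 (32.7 TPM), Cblb (30.6 TPM), Fbxo32 (30.2 TPM) and Foxo3 (26.0 TPM), with Irs2 (9.41 TPM) and Foxo1 (8.33 TPM) lowest. The untreated ranges of all neighbours in this order overlapped. With toxin the order of medians was Trim63 (501 TPM), Eif4ebp1 (250.3 TPM), Pdk4 (191 TPM), Fbxo32 (153 TPM), Cblb (41.0 TPM), Foxo3 (28.1 TPM), Foxo1 (15.1 TPM) and Irs2 (12.9 TPM). Trim63 thus went from the third to the first place, but its toxin-treated range of 66.3 to 3232 TPM spanned that of Eif4ebp1. For comparison, Ckm had medians of 1637 and 1956 TPM.

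Across the whole table, a gene was called where the edgeR adjusted p-value was under 0.05 and the absolute log2 fold change over 1. Between toxin-treated and untreated samples 5 of the 8 genes met this rule in the higher direction (Trim63, Fbxo32, Foxo1, Pdk4 and Eif4ebp1) and 0 in the lower direction, while 5.59% of all genes were called higher and 3.39% lower. These shares are given as the background and the set was selected on the same contrast, so nothing is read from the difference. The median log2 fold change was 1.20 over the 8 genes and -0.01 over all genes. Without the 7 libraries under 20000000 counts, an alternative chosen after seeing the data, 4 of 8 were called, and the log2 fold change of Eif4ebp1 was 0.95.

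The construct with MSC was then compared between mice with and without toxin. In (dep)BCP+MSC against BCP+MSC the log2 fold change was 5.74 ± 1.14 for Trim63, 3.16 ± 0.88 for Pdk4, 3.13 ± 0.44 for Fbxo32, 1.62 ± 0.29 for Foxo1 and 1.36 ± 0.36 for Irs2 (SE, n = 4 against 4). These 5 genes were called higher, beside 1.34% of all genes called higher and 1.8% lower, but 1 of the 8 was called when only the 2 groups compared were fitted. Eif4ebp1 (1.16 ± 0.43), Cblb (0.48 ± 0.27) and Foxo3 (0.26 ± 0.21) were not called. The samples of both groups did not overlap for 5 of 8 genes, Trim63, Fbxo32, Foxo1, Pdk4 and Cblb, and for 4.22% of all genes in the same direction. The number of these genes called was 3 without any 1 of BCP+MSC numbers 1, 2 or 3 or (dep)BCP+MSC numbers 1 or 2, and 3 without the libraries under 20000000 counts. (dep)BCP+MSC number 1 was the shallowest library and also carried the highest summed keratinocyte markers, 522 CPM, whose part in these values was not tested.

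In (dep)BCP+MSC+RvE1inj against BCP+MSC, Fbxo32 alone was called, with a log2 fold change of 1.92 ± 0.42 (SE), beside 0.242% of all genes called higher and 0.419% lower. Trim63 had a larger but less precise estimate of 4.09 ± 1.06, Pdk4 had 2.33 ± 0.85, Eif4ebp1 1.11 ± 0.43 and Foxo1 0.77 ± 0.28. Irs2 (0.43 ± 0.36), Cblb (0.25 ± 0.27) and Foxo3 (-0.12 ± 0.21) differed by about their error or less. For Trim63, Foxo1 and Pdk4 all 4 injected samples were above all 4 BCP+MSC samples, as were 2.77% of all genes. The call of Fbxo32 was lost without any 1 of BCP+MSC numbers 1, 2 or 3 or of (dep)BCP+MSC+RvE1inj numbers 2, 3 or 4, and in a fit of only the 2 groups compared, when 0 of 8 genes were called. Both toxin-treated groups were set against the same BCP+MSC samples here, so their fold changes share that control.

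Within toxin-treated mice, those injected with RvE1 were compared with the others as (dep)BCP+MSC+RvE1inj minus (dep)BCP+MSC. No toxin-treated group injected with vehicle alone is described in the study, so RvE1 and the daily local injection cannot be told apart. All 8 estimates were below 0, at -1.65 ± 0.96 for Trim63, -1.21 ± 0.42 for Fbxo32, -0.93 ± 0.36 for Irs2, -0.85 ± 0.28 for Foxo1, -0.83 ± 0.81 for Pdk4, -0.38 ± 0.21 for Foxo3, -0.23 ± 0.27 for Cblb and -0.05 ± 0.43 for Eif4ebp1 (log2, SE). None of the 8 genes was called by edgeR or DESeq2, as 0% of all genes were called higher and 0% lower by edgeR, where DESeq2 called 5 genes higher and 3 lower. Unadjusted p-values were under 0.05 for 3 of the 8 genes and for 2269 genes in all (7.42%). In 0 of the 8 genes was every injected sample lower, or every one higher, than all other toxin-treated samples, against 1.3% of all genes in each direction. The highest levels of Trim63, Fbxo32, Foxo1 and Irs2 were those of (dep)BCP+MSC numbers 1 and 2. Leaving out 1 sample moved the estimate for Pdk4 to 0.45 (without number 2) and that for Eif4ebp1 to between -0.44 and 0.17, while the other 6 remained below 0 whichever sample was left out.

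Among the untreated groups, 0 of the 8 genes and 0% of all genes were called by edgeR in BCP+MSC, BCP+MSC+RvE1 or BCP+MSC+Treg against BCP, or in BCP+MSC+RvE1 or BCP+MSC+Treg against BCP+MSC. Unadjusted p-values were under 0.05 for 0, 2, 3, 0 and 0 of the 8 genes in these 5 comparisons, and for 5.06%, 15.6%, 7.6%, 3.26% and 2.72% of all genes. DESeq2 called 0 of the 8 genes in each, and of all genes it called 38 higher and 60 lower in BCP+MSC+RvE1 against BCP and at most 1 higher and 5 lower in each of the other 4 comparisons. Pdk4 had the largest estimates, 2.36 ± 0.85 in BCP+MSC+RvE1 against BCP and 2.14 ± 0.85 in BCP+MSC+Treg against BCP, where Ckm also had estimates of 1.37 ± 0.82 and 0.80 ± 0.81. The next was Trim63 in BCP+MSC+RvE1 against BCP, at 1.84 ± 0.97 (log2, SE).

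**Figure D2:**
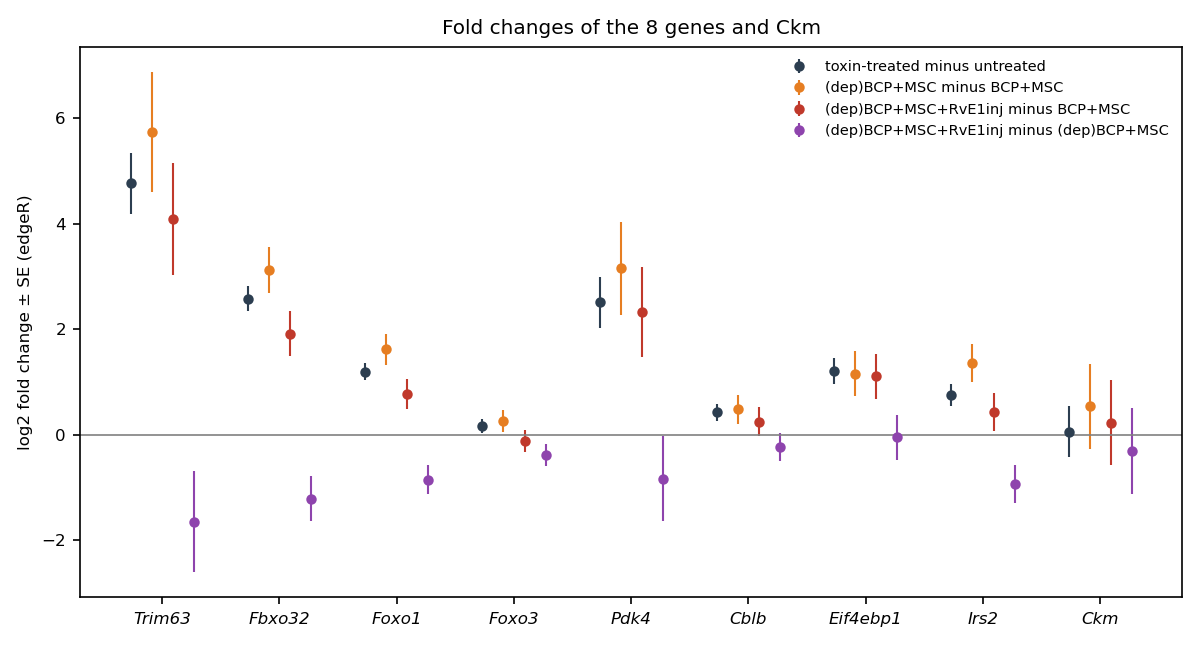
Log2 fold changes of the 8 genes and Ckm (points) with their SE (bars) from edgeR in 4 comparisons. Trim63, Fbxo32 and Pdk4 have the highest estimates, up to 5.74 for Trim63 in (dep)BCP+MSC against BCP+MSC, and every injected against non-injected estimate (purple) is below 0.

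Since muscle RNA differed so much between samples, each gene was related to Ckm within the 16 untreated samples. Trim63 followed Ckm closely, with Pearson r = 0.98 (permutation p = 2.00e-05, the smallest the permutations can give) and Spearman rho = 0.89 (p = 2.00e-05), and r = 0.93 without the 2 samples farthest from the median of Ckm. Pdk4 followed it less tightly, with r = 0.84 (permutation p = 2.00e-05), rho = 0.77 (p = 7.40e-04) and r = 0.82 without those samples. Foxo3 was lower where Ckm was higher, with r = -0.56 (permutation p = 0.00894), rho = -0.74 (p = 0.00162) and r = -0.61 without those samples. These were 8 relations, and after Benjamini-Hochberg adjustment over the 8 the p-values of r were 8.00e-05, 8.00e-05 and 0.0238. With the mean of the 32 muscle markers in place of Ckm, Foxo3 had r = -0.50 and an adjusted p of 0.0616, past the threshold no longer. The other 5 genes had r between -0.25 and 0.48 with Ckm and adjusted permutation p-values of 0.0824 or more, among them Fbxo32 at r = 0.26. Hence Trim63 and Fbxo32, both known as muscle ligases, differed in how far they followed Ckm without toxin, a difference that was not tested.

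Within the 8 toxin-treated samples r with Ckm was 0.63 for Fbxo32 (exact permutation p = 0.102), 0.50 for Eif4ebp1 (p = 0.205), 0.44 for Trim63 (p = 0.302) and between -0.04 and 0.19 for the other 5 genes. None passed the threshold, and without the 2 samples farthest from the median r turned to -0.44 for Fbxo32 and -0.62 for Trim63. With the mean of the 32 muscle markers in place of Ckm, r was 0.86 for Fbxo32 (exact permutation p = 0.00843, adjusted 0.0675) and 0.74 for Trim63 (exact permutation p = 0.0347, adjusted 0.139), and 0.36 and 0.19 without the 2 samples farthest from the median. After adjustment none passed, but the sign for both ligases thus depended on the reference once those samples were left out. No pooled r is given, since toxin-treated and untreated samples formed separate clusters for Trim63.

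**Figure D3:**
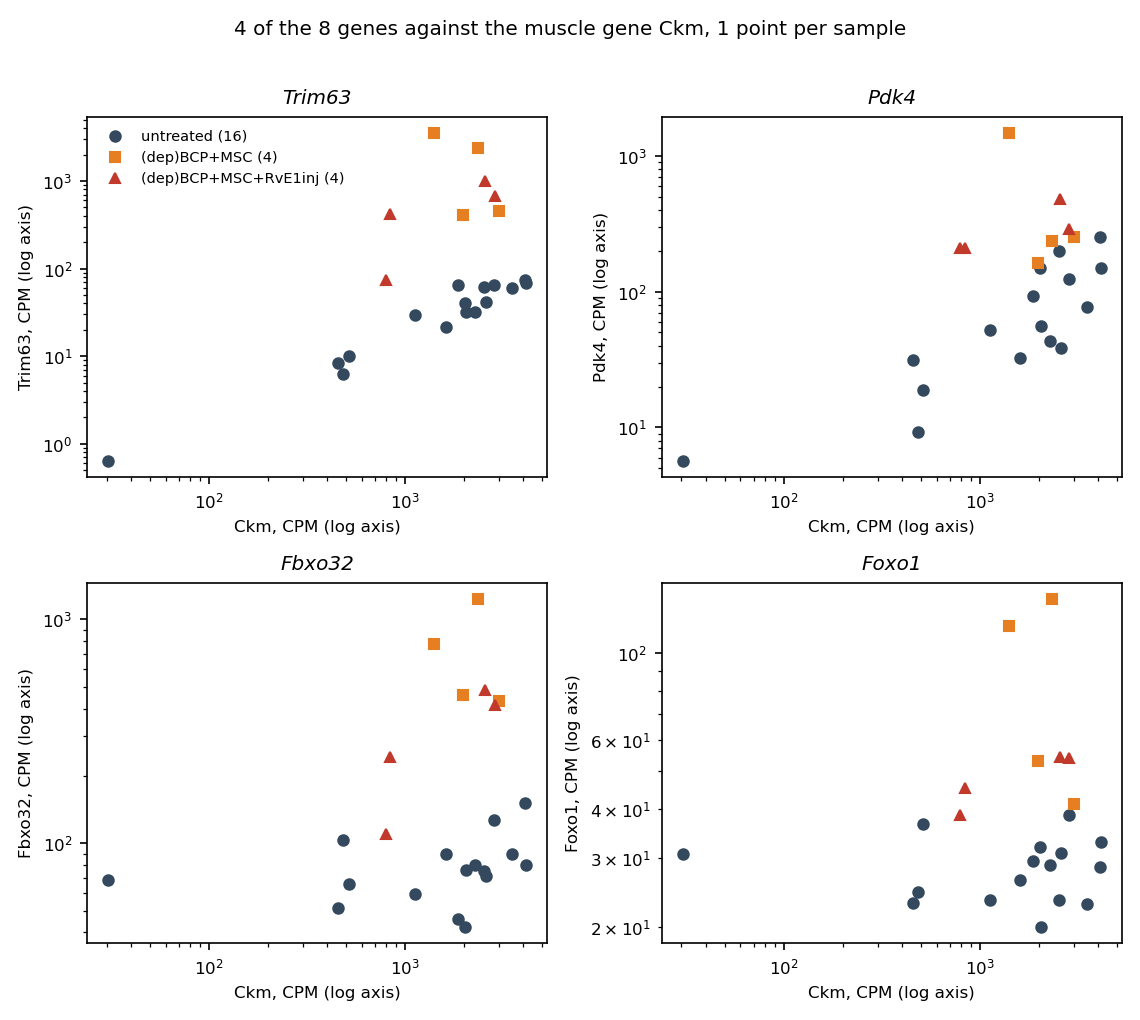
CPM of Trim63, Pdk4, Fbxo32 and Foxo1 against CPM of Ckm, both on log axes, with 1 point per sample. The 16 untreated samples form a rising band for Trim63 (r = 0.98) and Pdk4 (r = 0.84) and no such band for Fbxo32 (r = 0.26) or Foxo1 (r = -0.03), and the toxin-treated points lie above the band of Trim63.

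The level of each gene was then expressed per 1000 CPM of Ckm in the same sample. Trim63 had 12.9 to 34.8 in the 16 untreated samples, with a median of 18.5. It had 1007, 2502, 205 and 152 in (dep)BCP+MSC and 92.4, 234, 388 and 499.7 in (dep)BCP+MSC+RvE1inj. The toxin-treated and untreated samples no longer overlapped, and the mean log2 ratio differed by 4.28 (-1.45 ± 1.54, SD, n = 8, against -5.73 ± 0.38, SD, n = 16). Such a separation of the ratio to Ckm was seen for 6 of the 30564 genes tested (0.0196%). They were Trim63, Tmem52, Trim54, Lmod2, Abra and Myot, named after their values were seen. A gene that does not follow Ckm has a high ratio in BCP+MSC number 2, where Ckm was 30.4 CPM, and can hardly separate. The glucocorticoid response gene Fkbp5, at 30.7 to 64.0 CPM without and 205 to 840.1 CPM with toxin, was not among the 6. This share thus depends on which genes follow Ckm and does not measure how far Trim63 stands out. (dep)BCP+MSC+RvE1inj number 1, which had the lowest Trim63 of the toxin-treated samples, also had the lowest Ckm of them, 794 CPM.

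For Pdk4 the ratio was 15.0 to 187 per 1000 CPM of Ckm in untreated samples (median 40.1) and 82.2 to 1041 in toxin-treated samples (median 145). The groups overlapped through BCP+MSC number 2 alone, and without it, an alternative chosen after seeing the data, all 8 toxin-treated samples were above the 15 untreated ones, with a difference of 2.29 in mean log2 ratio. Fbxo32 had 19.4 to 2265 (median 37.3) in untreated and 139 to 554 (median 211) in toxin-treated samples. The value of 2265 was again BCP+MSC number 2, in which Ckm was low and Fbxo32 was not. The differences in mean log2 ratio were 2.14 for Pdk4, 2.09 for Fbxo32, 0.85 for Eif4ebp1, 0.73 for Foxo1, 0.31 for Irs2, 0.07 for Cblb and -0.26 for Foxo3, so that 7 of 8 genes had a higher mean ratio with toxin. In (dep)BCP+MSC against BCP+MSC and in (dep)BCP+MSC+RvE1inj against BCP+MSC the mean ratio was higher for 3 and 4 genes. Without BCP+MSC number 2 these counts were 8 and 8. Shares over all genes are not given for the counts of higher mean ratios. They depend on the low Ckm of that sample, without which the Foxo3 difference for (dep)BCP+MSC moved from -1.47 to 0.06. Nothing about the 8 genes is read from these counts.

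With log2 CPM of Ckm as a covariate in the edgeR model, the toxin-treated against untreated log2 fold changes were 4.83 ± 0.39 for Trim63, 2.62 ± 0.38 for Pdk4 and 2.51 ± 0.24 for Fbxo32 (SE). In that fit 5 of the 8 genes were called, but the share of all genes called in it is not given, so nothing is read from that count. Ckm itself had a log2 fold change of 0.06 ± 0.49 (SE), with means of 2004 ± 1272 CPM (SD, n = 16) and 1972 ± 874 CPM (SD, n = 8). The estimates for the ligases and for Pdk4 were thus about as large at a given level of Ckm as without it.

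**Figure D4:**
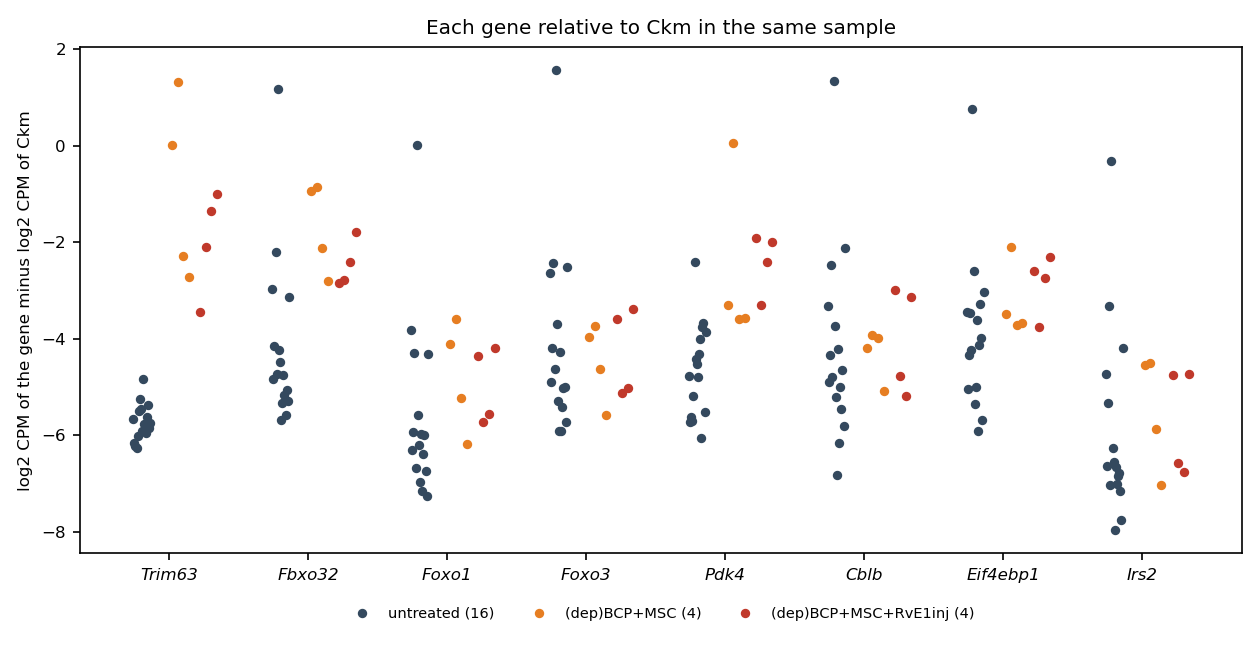
Log2 CPM of each gene minus log2 CPM of Ckm in the same sample, 1 point per sample. For Trim63 the toxin-treated samples lie between -3.44 and 1.32 and the untreated ones between -6.27 and -4.84, and the highest untreated point of the other genes is BCP+MSC number 2.

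Among the 8 genes themselves, coupling differed between the sample sets, as a description over samples that share library depth and muscle content. Over untreated samples Trim63 and Pdk4 had r = 0.90, while Trim63 and Fbxo32 had r = 0.17 and Trim63 and Foxo1 r = 0.01. Over toxin-treated samples the r of Trim63 was 0.93 with Fbxo32, 0.86 with Foxo1 and 0.66 with Pdk4, and that of Foxo1 was 0.95 with Foxo3 and 0.93 with Irs2. These samples join 2 groups, and (dep)BCP+MSC numbers 1 and 2 held the highest Trim63, Fbxo32, Foxo1, Foxo3 and Irs2. How far these r rest on those 2 samples was not tested. Cblb was least alike, with r = -0.00 to Trim63 and -0.65 to Eif4ebp1 with toxin.

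The 3 genes with the most similar pattern were found for each gene by Pearson r of log2 CPM over all 24 samples, among 13646 genes with a mean of at least 1 CPM. They were Lmod2 (0.98), Cnksr1 (0.98) and Dusp26 (0.97) for Trim63, and Coq8a, Asb11 and Ankrd2 (0.92 each) for Pdk4. For Fbxo32 they were Ktn1 (0.98), Arrdc2 (0.95) and Uri1 (0.94), and for Foxo1 Cry2 (0.96), Zscan12 and Tfdp2 (0.95 each). Foxo3 was most like Sf1 (0.84), Rnf216 (0.83) and Ddi2 (0.82), and Cblb most like Gda (0.87), Ctdp1 and Egln3 (0.82 each). Eif4ebp1 was most like Nol3 and the proteasome subunits Psmd4 and Psmd3 (0.95 each), and Irs2 most like Ythdc1, Mafk (0.90 each) and Sbsn (0.87). These r pool toxin-treated and untreated samples and so include any difference between the 2 sets. Within toxin-treated and untreated samples the r with Fbxo32 was 0.99 and 0.74 for Ktn1, 0.92 and 0.36 for Arrdc2, and 0.93 and 0.42 for Uri1. With Foxo1 it was 0.96 and 0.72 for Cry2, 0.99 and 0.49 for Zscan12, and 0.97 and 0.51 for Tfdp2. That of Lmod2 with Trim63 was 0.97 and 0.95, and that of Asb11 with Pdk4 was 0.62 and 0.93.

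The wider pathways held 149 further genes in 7 lists. Of these, 25 rose and 4 fell between untreated and toxin-treated samples (19.5% called, with an all-gene background of 5.59% higher and 3.39% lower). The median log2 fold change of the 149 genes was 0.35. In (dep)BCP+MSC against BCP+MSC 16 rose and 2 fell (12.1% called, beside 1.34% of all genes higher and 1.8% lower). In (dep)BCP+MSC+RvE1inj against BCP+MSC 3 rose, namely Fbxo31, Bnip3 and Glul, and 0 fell (2.01% called, beside 0.242% of all genes higher and 0.419% lower). Without the libraries under 20000000 counts the number called was 12 between toxin-treated and untreated samples, 10 for (dep)BCP+MSC and 0 for (dep)BCP+MSC+RvE1inj. The shares of all genes called in that fit are not given. All lists here and below were chosen with earlier results of these data known. The background of all genes also includes genes with as few as 10 counts in total. Nothing is read from the difference between the shares of the lists and of all genes.

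Of 21 other genes of ubiquitin ligases and proteolysis, 2 rose and 0 fell with toxin, with a median log2 fold change of 0.16. Fbxo31, a ubiquitin ligase adaptor, rose by 2.50 ± 0.24 (SE, edgeR adjusted p = 6.13e-07), from 19.9 to 61.4 CPM in untreated to 89.4 to 473 CPM in toxin-treated samples, which did not overlap. Trim54, a relative of Trim63 in the sarcomere, rose by 1.56 ± 0.49 (edgeR adjusted p = 0.0372). Of 17 autophagy genes 1 rose, with a median of 0.37 over the list. It was Bnip3, a mitophagy receptor under FoxO control, with a log2 fold change of 1.94 ± 0.16 (edgeR adjusted p = 6.88e-08) and 32.8 to 142 CPM without against 185 to 525 CPM with toxin.

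Of 23 genes of the FoxO family and its stress targets, 6 rose and 0 fell (median 0.38). The list did not move as one, with estimates above 0 for 16 of the 23. Against BCP+MSC alone, 5 were called in (dep)BCP+MSC and 0 in (dep)BCP+MSC+RvE1inj. The 6 that rose with toxin included Ddit4, an inhibitor of mTOR, with 1.86 ± 0.27 (edgeR adjusted p = 5.90e-05). Txnip, an inhibitor of glucose uptake, had 1.17 ± 0.18 (edgeR adjusted p = 1.06e-04), and Klf15, a regulator of amino acid breakdown, had 2.46 ± 0.38 (edgeR adjusted p = 2.07e-04). The list of the fasting fuel switch, 29 genes beside Pdk4, had 9 that rose and 0 that fell (median 0.59). Among these, Glul, the glutamine synthetase, rose by 1.53 ± 0.17 (edgeR adjusted p = 1.98e-06), and the lipid regulator Lpin1 by 1.57 ± 0.23 (edgeR adjusted p = 4.99e-05). Against BCP+MSC alone, 4 of the 29 were called in (dep)BCP+MSC and 1 in (dep)BCP+MSC+RvE1inj.

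The list of insulin, IGF and mTOR signalling moved both ways, with 2 of 33 genes higher and 2 lower (median 0.19). Igfbp3 rose by 1.47 ± 0.22 (edgeR adjusted p = 7.53e-05) and Igf2 by 1.11 ± 0.34 (edgeR adjusted p = 0.0308), while Igfbp5 had a log2 fold change of -1.23 ± 0.23 (edgeR adjusted p = 6.89e-04) and Irs1, the partner adaptor of Irs2, of -1.28 ± 0.42 (edgeR adjusted p = 0.0433). Of 12 genes of myostatin and activin signalling 0 rose and 1 fell, the ligand Gdf11, at -1.40 ± 0.24 (edgeR adjusted p = 2.69e-04). Of 14 genes linked to denervation 5 rose and 1 fell (median 0.78). Myog, a muscle transcription factor, rose by 2.10 ± 0.49 (edgeR adjusted p = 0.00583) and Chrna1, a subunit of the muscle acetylcholine receptor, by 1.66 ± 0.43 (edgeR adjusted p = 0.0106). Ankrd1 rose by 1.54 ± 0.45 (edgeR adjusted p = 0.0248), and Ncam1 fell to 0.500 of its untreated level in the fit (edgeR adjusted p = 0.0222). These values set all toxin-treated against all untreated groups. Against BCP+MSC alone, 1 of the 14 genes was called in (dep)BCP+MSC and 0 in (dep)BCP+MSC+RvE1inj. Myog, Chrna1, Ankrd1 and Ncam1 were called in neither.

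Both muscle ligases and Pdk4 are known targets of the glucocorticoid receptor as well as of FoxO. Of 8 genes of the glucocorticoid response 5 rose with toxin, led by Fkbp5, a chaperone that dampens the receptor, with a log2 fold change of 3.15 ± 0.18 (edgeR adjusted p = 5.25e-11) and a range of 30.7 to 64.0 CPM without and 205 to 840.1 CPM with toxin. Tsc22d3 (1.60 ± 0.19), Per1 (1.73 ± 0.23), Zbtb16 (2.46 ± 0.36) and Hif3a (3.12 ± 0.45) also rose, with edgeR adjusted p-values of 4.44e-06, 2.39e-05, 1.11e-04 and 4.25e-05. Dusp1 (0.19 ± 0.26), Errfi1 (0.49 ± 0.26) and Nr3c1, the receptor itself (-0.12 ± 0.17), did not pass the test. The part of glucocorticoids in the levels of the 8 genes was not tested.

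Genes of muscle structure did not move as one. Of 32 skeletal muscle markers 5 rose and 2 fell with toxin, with a median log2 fold change of 0.31. Des rose by 1.86 ± 0.48 (edgeR adjusted p = 0.0114), Actn2 by 1.88 ± 0.54 (edgeR adjusted p = 0.0215) and Myot by 1.73 ± 0.50 (edgeR adjusted p = 0.0221), whereas Casq1 (-2.15 ± 0.51, edgeR adjusted p = 0.00716) and Myl1 (-1.76 ± 0.56, edgeR adjusted p = 0.0375) fell. Against BCP+MSC alone, 0 of the 32 were called in (dep)BCP+MSC or in (dep)BCP+MSC+RvE1inj. Among markers of other cells, 8 of 10 T cell markers rose and 7 of 10 fibroblast markers fell with toxin. Further, 2 of 11 keratinocyte markers were called higher, 1 of 11 macrophage markers fell, and 0 of 12 adipocyte and 0 of 8 endothelial markers were called. Over all genes 5.59% were called higher and 3.39% lower. Against BCP+MSC, 0 T cell markers were called in (dep)BCP+MSC and 4 in (dep)BCP+MSC+RvE1inj, and 6 and 1 fibroblast markers. Summed T cell markers had medians of 72.1 and 144 CPM in these 2 groups. Of the 2 keratinocyte markers, Krt10 had a median of 1.95 CPM with and 2.55 CPM without toxin. Its highest value, 133 CPM, was in (dep)BCP+MSC, so that no general rise was seen for it. The part of cell content in the fold changes of the 8 genes, other than that of Ckm above, was not tested.

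**Figure D5:**
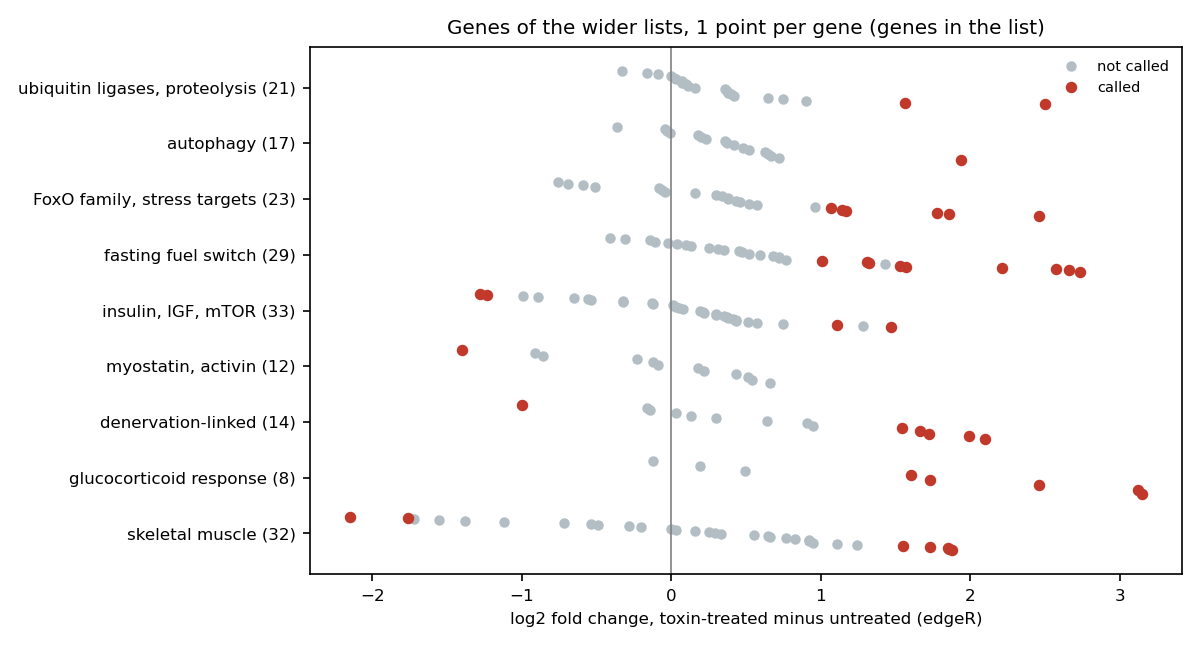
Log2 fold change between toxin-treated and untreated samples for each gene (point) of 9 lists, with called genes in red. Called genes of the FoxO, fasting and glucocorticoid lists are all higher, with 6, 9 and 5 genes, and the insulin and skeletal muscle lists hold called genes on both sides.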

How the data were processed

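Groups came from the sample labels and their description from the study. RNA of whole constructs was sequenced as paired ends from stranded libraries. The deposited values are raw counts per gene, which the authors made with HISAT2 2.0.5 and featureCounts 1.5.2 on GENCODE M13 (GRCm38). STAR, Picard and DESeq2 1.42.0 are also listed in the submitters' processing notes. Symbols came from a GENCODE annotation of the same build and matched 50376 of 51138 identifiers.

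All 24 columns were used. The codes of the groups are those given with the series, where R stands for BCP+MSC+RvE1. The counting command in the file header also names 4 alignments called RVE, which have no column and were not analysed here, and how they relate to R is not given in the sources used here. In (dep)BCP+MSC they are numbered 1, 2, 4 and 5, and the columns 4 and 5 were used as samples of the group without a replicate number. Genes with at least 10 counts in total were kept (30564). One edgeR 4.0.16 quasi-likelihood model (R 4.3.3, TMM, robust) was fitted to all 6 groups, with Benjamini-Hochberg adjustment over all genes tested. CPM were scaled by TMM, log2 CPM used a prior count of 2, and TPM used exon lengths. Total counts and the level of 3 counts are in the report and cover counting error only. Correlations used 100000 permutations, or all of them for 8 samples. The 8 genes and all lists were chosen with earlier results of these data known. Named genes are the 8, Ckm, up to 3 called genes in each direction with the smallest adjusted p-value per list, all glucocorticoid genes and the 3 most similar genes of each. The values of 1 gene that the rule names are not reported here. Markers of 7 cell types were used.

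Alternatives were scaling by RLE, filtering by filterByExpr or not at all, DESeq2 1.42.0, only the groups compared, a replicate block, Ckm or the muscle markers as covariate or reference, the adjusted p-value alone and each sample left out. Leaving out 7 libraries under 20000000 counts, and BCP+MSC number 2 from the ratio, was added after seeing the data. On simulated counts for toxin-treated against untreated samples edgeR recovered 60 of 100 genes changed 2-fold and 94 of 100 changed 4-fold. It called 11 unchanged genes of 30564. A gene counted there at an adjusted p-value under 0.05 alone, and the changed genes had a mean of at least 1 CPM. These numbers thus do not describe calls that also need an absolute log2 fold change over 1. Tables and figures used Python 3.11.15, pandas 2.3.3, scipy 1.17.1 and matplotlib 3.10.9.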

Additional observations from a re-analysis of the deposited data

Results flagged for a closer look

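In groups of 4, the sample farthest from the others was compared with the range of its group, for the 8 genes and Ckm in 6 groups (54 in all). In 2 of them 1 sample stood apart, where chance alone gives about 1 in 20. Pdk4 in (dep)BCP+MSC was 1468 CPM in number 2 and 162 to 253 CPM in the other samples. Foxo1 in BCP+MSC+Treg was 31.9 CPM in number 1 and 22.9 to 23.4 CPM in the others.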

How the results depend on the processing

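The log2 fold changes between toxin-treated and untreated samples kept their direction for all 8 genes under the 34 settings tried, with up to 5.13 for Trim63, 2.22 to 2.95 for Fbxo32, 1.87 to 2.73 for Pdk4, 1.02 to 1.48 for Foxo1 and 0.01 to 0.36 for Foxo3. With adjusted p-values alone 64 pathway genes were called in place of 29. For (dep)BCP+MSC+RvE1inj against BCP+MSC, where 1 of the 8 genes and 3 pathway genes were called, filterByExpr gave 2 of the 8 genes, DESeq2 gave 3 and 12, and a fit of only the groups compared gave 0 and 1. For (dep)BCP+MSC against BCP+MSC, with 5 and 18, DESeq2 gave 34 pathway genes and a fit of only the groups compared gave 1 and 4. Without the 7 libraries under 20000000 counts the pathway genes called were 12 between toxin-treated and untreated samples, the numbers for (dep)BCP+MSC were 3 and 10, and those for (dep)BCP+MSC+RvE1inj were 0 and 0. With 1 sample left out they ranged from 3 to 5 and 8 to 25 for (dep)BCP+MSC, 0 to 1 and 2 to 5 for (dep)BCP+MSC+RvE1inj, and 5 to 5 and 20 to 30 between toxin-treated and untreated samples. The 8 pathway genes were reached without (dep)BCP+MSC number 1 or 2, 10 without BCP+MSC number 1 or 3, and the 5 without (dep)BCP+MSC+RvE1inj number 1. Fewer samples stood behind each of these fits, and the cause was otherwise not tested. Shares called over all genes are not given for the alternative fits of this section. Their counts show how the calls move and are not read as a result about the 8 genes or the lists. The replicate block left out the 2 columns without a replicate number. It gave 3 of the 8 genes and 6 pathway genes for (dep)BCP+MSC+RvE1inj against (dep)BCP+MSC, where 0 and 0 were called without it, and moved no other count by over 1.5 times. In that fit (dep)BCP+MSC kept only numbers 1 and 2, which held the highest Trim63, Fbxo32, Foxo1 and Irs2. The share of all genes called in it is not given, so nothing is read from the 3 and 6. Samples with the same number had a median correlation of 0 (-0.62 to 0.62, 50 pairs). Those with different numbers had one of -0.04 (-0.64 to 0.69, 150 pairs). No pairing by number was seen in this, and a shared step of processing was not tested. Without BCP+MSC number 2 the mean ratio to Ckm was higher for 8 genes in (dep)BCP+MSC (3 with it) and for 8 in (dep)BCP+MSC+RvE1inj (4 with it). The difference for Foxo3 between toxin-treated and untreated samples turned from -0.26 to 0.12. These counts depend on the low Ckm of that sample, and no share over all genes is given for them. With the muscle markers as reference that of Cblb turned from 0.07 to -0.08, r of Foxo3 became -0.50 and that of Eif4ebp1 0.56 (adjusted permutation p = 0.0616 and 0.0359). At the lowest depth 3 counts were 0.354 CPM, under the lowest value of all 8 genes.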
